A study of Canis lupus familiaris with 2 samples.

Results

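Circadian clock transcripts were examined in MDCK cells, a dog kidney epithelial line in continuous culture that forms columnar monolayers. The genes were chosen by name, from their known roles, and comprised CLOCK and ARNTL, PER1, PER2 and PER3, CRY1 and CRY2, NR1D1 and NR1D2, and DBP. All 10 were listed among the 23510 features of the deposited tables. The control culture stood below 2-cm-high medium, and the loaded culture stood below 50-cm-high medium. The water column above the cells set the pressure in cm H2O, so the control culture was under a low pressure rather than none. Both were plated on culture inserts in EMEM, a standard medium, with 10% serum and are labelled day 3. Each group was 1 culture and 1 library. No value therefore has a replicate error, no difference could be tested, and a difference of pressure cannot be told apart from one of library, cell density or harvest. The hour of harvest and the hour of the last medium change were not given in the sources used here.

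The cellular clock is a transcriptional loop. CLOCK and BMAL1, the protein encoded by ARNTL, bind as a pair to E-box elements and activate the PER, CRY, NR1D and DBP genes. PER and CRY proteins then enter the nucleus and repress that pair. In a second loop, the NR1D proteins (REV-ERB alpha and beta) repress ARNTL and the ROR proteins activate it, so that ARNTL RNA and the E-box-driven RNAs peak at opposite times of the cycle. Kidney epithelium carries this oscillator, and in cultured cells serum or fresh medium can set its phase. Cells that are out of phase with each other average out in a bulk library, in which fewer cells that express a gene and less RNA per cell cannot be told apart.

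Values are FPKM, fragment numbers corrected for the length of the exons and for library size. Levels can be compared between genes only as far as the annotated exons, not given in the sources used here, are right. A ratio is the FPKM of the loaded culture over that of the control culture, and a log2 ratio is its logarithm. The control culture had 15125 features above 0 FPKM and the loaded culture 14951. The read number behind each value is unknown. Of 574 features below 0.1 FPKM in both libraries, 219 shared a ratio of 1.0977 to within 0.2%, the step that a single read on each side leaves, so a read counted for 9.8% more FPKM in the loaded library. The epithelial markers CDH1 (211 and 229 FPKM) and EPCAM (253 and 216 FPKM) and the kidney tubule factors PAX2 (28.3 and 27.9 FPKM) and PAX8 (65.1 and 57.6 FPKM) were present in both cultures. CDH16, a kidney cadherin, was low (1.96 and 0.676 FPKM). The 11 fibroblast, endothelial and leukocyte markers that were found reached at most 0.277 FPKM (KDR, control culture), and DCN, PECAM1, PTPRC and CD3E were listed at 0.

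CRY1 was by far the most abundant of the 10 clock transcripts, and PER2 the least. CRY1 took 43.2% of the summed FPKM of the 10 genes in the control culture and 42.5% in the loaded culture. It was also the only one above the median feature, which stood at 16.2 and 16.3 FPKM among the 11057 features with more than 1 FPKM in both cultures. Below CRY1 came PER1, CLOCK, ARNTL, NR1D2 and NR1D1, in that order in the control culture, between 5.39 and 2.02 FPKM. DBP, CRY2 and PER3 followed at 1.08, 1.08 and 0.937 FPKM. In the loaded culture NR1D2 stood above ARNTL, and PER3 stood above DBP and CRY2. Several neighbours in this order were close, among them DBP and CRY2 in the control culture and CLOCK and NR1D2 in the loaded culture (ratio of levels 1.04), and without replicates their order has no error. The summed level of the 10 genes was 39.5 FPKM in the control culture and 39.7 FPKM in the loaded culture.

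**Figure D1:**
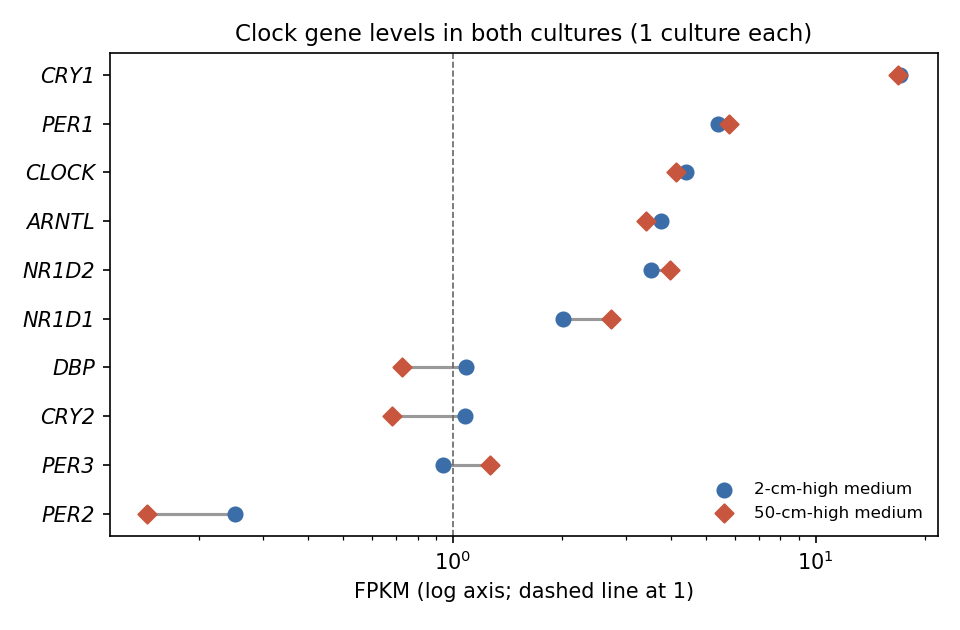
FPKM of each clock gene in the 2-cm-high-medium culture (circles) and the 50-cm-high-medium culture (diamonds) on a log axis, with a grey line joining the values of a gene and 1 culture per group. CRY1 lies at 17.1 and 16.9 FPKM, and the widest gaps belong to genes near or below 1 FPKM, such as PER2 at 0.251 and 0.144 FPKM.

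The activators CLOCK and ARNTL had similar levels in the cultures, whereas NPAS2, the paralogue that can replace CLOCK in the pair, was lower in the loaded culture. CLOCK was at 4.39 FPKM in the control culture and 4.12 FPKM in the loaded culture, a ratio of 0.94. ARNTL was at 3.75 and 3.42 FPKM, a ratio of 0.911. The direction of these small differences depended on the scaling, since quantile normalization of the cultures gave log2 ratios of 0.04 for CLOCK and 0.02 for ARNTL. NPAS2 was at 6.58 FPKM in the control culture and 3.82 FPKM in the loaded culture (ratio 0.581). Its level was 1.5 times that of CLOCK in the control culture and 0.927 times that of CLOCK in the loaded culture. Among the 500 features nearest to NPAS2 in mean log2 FPKM, 7.4% lay at least as far from 0 on the log2 scale. ARNTL2, the paralogue of ARNTL, was at 2.06 and 2.22 FPKM (ratio 1.08).

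Among the PER and CRY repressors, the more highly expressed CRY1 and PER1 had close values in the cultures. The scarcer CRY2, PER2 and PER3 differed more and in different directions. CRY1, a strong repressor of the CLOCK and BMAL1 pair, was at 17.1 FPKM in the control culture and 16.9 FPKM in the loaded culture, a ratio of 0.988. PER1, which also answers acutely to cAMP and to glucocorticoid, was at 5.39 and 5.79 FPKM, a ratio of 1.07. Neither passed 1.5-fold, and among the 500 features nearest in level 94% lay at least as far from 0 on the log2 scale as CRY1 and 73.4% as PER1.

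CRY2, the second cryptochrome, was at 1.08 FPKM in the control culture and 0.679 FPKM in the loaded culture (ratio 0.627). That ratio lay within 0.05% of the one given by 4 reads against 7, or by a multiple of these, and a ratio that at most 10 reads a side can give was found for 47.9% of the features above 0.1 but not above 1 FPKM in both cultures. Such a ratio was also found for 3.95% of the features above 1 FPKM in both, so a match alone does not show few reads. PER2 had 0.251 FPKM in the control culture and 0.144 FPKM in the loaded culture (ratio 0.575), and adding 1 FPKM to both values brought the ratio to 0.915. PER3, a period protein that is dispensable for the basic rhythm, had 0.937 and 1.26 FPKM (ratio 1.35). CRY2 and PER2 were thus lower and PER3 higher in the loaded culture. The level of CRY1 relative to CRY2 was 15.8-fold in the control culture and 24.9-fold in the loaded culture, and that of PER1 relative to PER2 was 21.5-fold and 40.1-fold. Features as weakly expressed as these often differed as much. Of the 500 nearest in level, 34.8% lay at least as far from 0 as CRY2, 48.4% as PER2 and 55.2% as PER3. The medians of these neighbours lay below 0, so direction matters. Of the neighbours, 25.2% had a lower ratio than CRY2, 29.4% a lower ratio than PER2 and 16.2% a higher ratio than PER3. CIART, a further repressor of the pair, listed in the files as C17H1orf51, was at 0.397 and 0.193 FPKM, and its ratio of 0.488 could be given by 4 reads against 9.

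Both REV-ERB genes were higher in the loaded culture. NR1D1 was at 2.02 FPKM in the control culture and 2.74 FPKM in the loaded culture (ratio 1.35), the largest difference among the 6 clock genes above 1 FPKM in both cultures. NR1D2 was at 3.53 and 3.96 FPKM (ratio 1.12). NR1D1 ranked 1500 of 11057 by the size of its log2 ratio, and 34% of the 500 features nearest in level lay at least as far from 0. Those features had a median log2 ratio of -0.172, and 8.2% of them had a higher ratio than NR1D1. THRA, a thyroid hormone receptor gene, is the immediate neighbour of NR1D1 in the RefSeq annotation of the assembly UU_Cfam_GSD_1.0. In mammals a THRA transcript runs into NR1D1 on the opposite strand, and although the libraries were stranded, it is not stated whether the counting used the strand. THRA was at 4.43 FPKM in the control culture and 3.09 FPKM in the loaded culture (ratio 0.698), opposite in direction to NR1D1. The part of shared reads in the NR1D1 value was not tested. RORA and RORB, which encode activators that compete with REV-ERB, were almost undetected, with RORA at 0.0436 and 0.041 FPKM and RORB listed at 0 in both. A listed 0 does not show that a transcript was absent, since ATP5O, a subunit gene of the mitochondrial ATP synthase that every cell uses, was also listed at 0 in both cultures.

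DBP, the output factor that drives genes through D-box elements, was at 1.08 FPKM in the control culture and 0.723 FPKM in the loaded culture. Its ratio of 0.666 lay just beyond 1.5-fold, and 39.2% of the 500 features nearest in level lay at least as far from 0. Its relative TEF, which binds the same element, was more abundant and close in both cultures at 2.28 and 2.23 FPKM (ratio 0.981). HLF, the third of these factors, was at 0.0752 FPKM in the control culture and listed at 0 in the loaded culture. NFIL3, which represses through the D-box, was at 15.0 and 15.8 FPKM (ratio 1.06), so its level was 13.8-fold that of DBP in the control culture and 21.9-fold in the loaded culture.

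The DEC factors, E-box-binding repressors encoded by BHLHE40 and BHLHE41, were more abundant than any of the 10 clock genes and diverged from each other. BHLHE40 was at 64.7 FPKM in the control culture and 32.1 FPKM in the loaded culture, a ratio of 0.496. BHLHE41 was at 51.1 and 52.8 FPKM (ratio 1.03). BHLHE40 therefore stood 1.27-fold above BHLHE41 in the control culture and at 0.607 times its level in the loaded culture. Of the 500 features nearest to BHLHE40 in level, 0.4% lay at least as far from 0. BHLHE40 lay only just past 2-fold, and adding 1 FPKM to both values brought its ratio to 0.503.

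No clock gene of the 10 passed 2-fold. Above 1 FPKM in both cultures stood 6 of them (CLOCK, ARNTL, PER1, CRY1, NR1D1 and NR1D2), and 0 of the 6 passed either 2-fold or 1.5-fold, where 1.67% and 7.19% of all 11057 such features did. With shares this low, a count of 0 among 6 genes does not set the clock genes apart from other features. Of the 6, 3 were higher and 3 lower in the loaded culture (5 and 1 after quantile normalization). Their median log2 ratio was 0.043, beside 0.0146 for all those features. The other 4 (PER2, PER3, CRY2 and DBP) stood above 0.1 FPKM in both cultures but not above 1 FPKM in both. Of them 0 passed 2-fold and 3 (PER2, CRY2 and DBP) were lower by more than 1.5-fold in the loaded culture. After quantile normalization 0 of the 4 were lower by that much and 1, PER3, was higher (ratio 1.58), and after centring on the features nearest in level PER2 was lower (0.611) and PER3 higher (1.58). In that range of expression 24.5% of 2223 features passed 2-fold, 49.7% passed 1.5-fold in either direction, and 33.6% were lower by more than 1.5-fold, so such ratios were common there. The median log2 ratio of those 2223 features was -0.266. Over all 10 genes, 4 were higher and 6 lower in the loaded culture, with a median log2 ratio of -0.053.

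The ratio of a typical feature fell slightly below 1 as expression fell, and 9 of the 10 clock genes lay under 6 FPKM in both cultures. The 500 features nearest to CLOCK had a median log2 ratio of -0.113 and those nearest to ARNTL one of -0.127, close to the values of -0.09 for CLOCK and -0.134 for ARNTL themselves. After the median of the features nearest in level was subtracted, the log2 ratio was 0.66 for PER3, 0.61 for NR1D1, 0.30 for NR1D2 and 0.16 for PER1. It was -0.71 for PER2, -0.44 for CRY2 and -0.37 for DBP. CRY1, in the middle of the expression range, differed from its neighbours by -0.046.

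**Figure D2:**
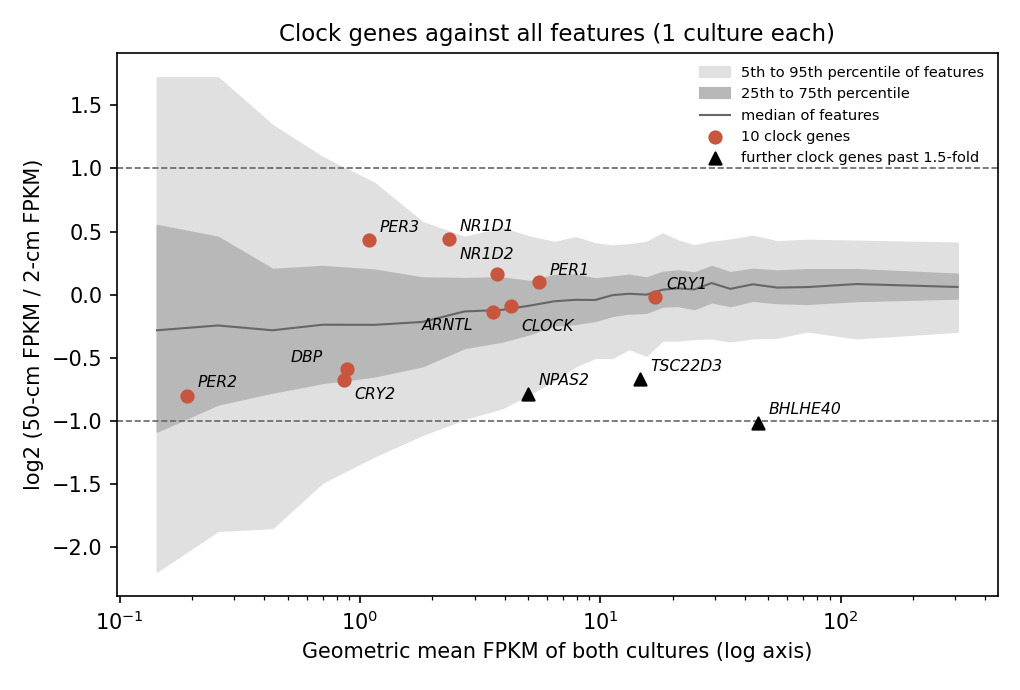
The log2 ratio of the loaded over the control culture (vertical axis) against the geometric mean FPKM of both cultures (log axis), with the 10 clock genes as circles, further clock pathway genes past 1.5-fold as triangles, and grey bands for the percentiles of features in 25 groups by level. The groups hold 541 or 542 features each and do not include every feature. The bands widen toward low FPKM and enclose PER2, CRY2 and DBP, whereas BHLHE40 at -1.01 and TSC22D3 at -0.67 lie outside them, and dashed lines mark 2-fold.

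Genes that the clock drives through E-boxes or D-boxes were also set beside genes that it drives through the REV-ERB and ROR element. In a running clock these sets peak at different times. Inputs from outside the clock were not separated. CRY1, which carries E-boxes and also a REV-ERB and ROR element that delays its peak, was counted in the second set, and CRY2 in neither. Of the first set 6 genes stood above 1 FPKM in both cultures, with log2 ratios of 0.44 (NR1D1), 0.17 (NR1D2), 0.10 (PER1), 0.05 (BHLHE41), -0.03 (TEF) and -1.01 (BHLHE40). The second set held 5 such genes, at 0.08 (NFIL3), -0.02 (CRY1), -0.09 (CLOCK), -0.13 (ARNTL) and -0.78 (NPAS2). The medians were 0.076 and -0.09, a difference of 0.166 (0.16 with CRY1 in the first set). The range of the second set lay within that of the first, but only because BHLHE40 set the lower end of the first. ARNTL stood at 1.86 times the level of NR1D1, whose protein represses it, in the control culture and at 1.25 times in the loaded culture. The log2 difference was -0.57. DBP, an E-box target like NR1D1, differed the other way, and the level of ARNTL relative to DBP was 3.46 and 4.72. DBP, like PER2, PER3 and CIART, did not stand above 1 FPKM in both cultures, a range in which ratios of this size were common. With a single library and time point per culture, neither the phase nor the amplitude of the clock could be measured, and whether the cultures differed in either was not tested.

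The proteins that time and degrade the clock repressors were encoded by genes that were mostly more abundant than the clock genes and close in the cultures. All 14 listed kinase and phosphatase genes stood above 1 FPKM in both cultures, with 10 higher and 4 lower in the loaded culture (7 and 7 after quantile normalization) and 0 past 1.5-fold. The casein kinases that phosphorylate PER proteins were at 48.7 and 48.3 FPKM (CSNK1D) and at 22.4 and 26.5 FPKM (CSNK1E). The extremes of the list were CSNK2B, the regulatory subunit of casein kinase 2, at 128 and 151 FPKM (ratio 1.18), and PRKAA2, a catalytic subunit of AMP-activated kinase, which marks CRY1 for degradation, at 2.04 and 1.40 FPKM (ratio 0.687). PRKAA1, the other catalytic subunit, was at 23.9 FPKM in both cultures.

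Of 6 ubiquitination genes 4 stood above 1 FPKM in both cultures, all 4 at ratios between 0.775 and 0.97 (0 higher and 4 lower after quantile normalization too). SIAH2, a ubiquitin ligase gene, had the highest ratio at 12.9 and 12.6 FPKM, and BTRC, which targets PER proteins, the lowest at 5.61 and 4.34 FPKM. Differences of this size were common, since among the 500 features nearest in level 85.4% lay at least as far from 0 as SIAH2 and 28.4% as BTRC. USP2, a rhythmic deubiquitinase gene, was at 0.494 and 0.756 FPKM. The 10 co-regulator genes gave 5 higher and 5 lower (4 and 6 after quantile normalization), from 0.863 for KDM5A, a histone demethylase that associates with the CLOCK and BMAL1 pair, to 1.14 for WDR5, a subunit of histone methyltransferase complexes.

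Among 9 clock-controlled genes, 6 stood above 1 FPKM in both cultures, with 3 higher and 3 lower in the loaded culture (1 and 5 after quantile normalization). TSC22D3, which encodes the glucocorticoid-induced leucine zipper, was at 18.5 FPKM in the control culture and 11.6 FPKM in the loaded culture (ratio 0.629), and 2.8% of the 500 features nearest in level lay at least as far from 0. SCNN1A, the alpha subunit of the epithelial sodium channel and a rhythmic gene of the kidney tubule, was at 3.02 and 2.02 FPKM (ratio 0.669), just short of 1.5-fold, and passed it once the median of all features was subtracted. WEE1, a cell cycle kinase gene with E-boxes, and NAMPT, of NAD synthesis, were close in both cultures, at 33.5 and 30.7 FPKM and at 31.9 and 32.2 FPKM. KLF9 and SLC9A3 were listed at 0 in both. Over these further lists of 49 genes, 40 stood above 1 FPKM in both cultures, 21 of them higher and 19 lower, with a median log2 ratio of 0.00434. Past 1.5-fold were 3 of the 40, NPAS2, BHLHE40 and TSC22D3. This is close to the share among all features above 1 FPKM, of which 7.19% passed 1.5-fold in either direction. All 3 were lower in the loaded culture, and the share of all such features lower by that much is not given here.

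**Figure D3:**
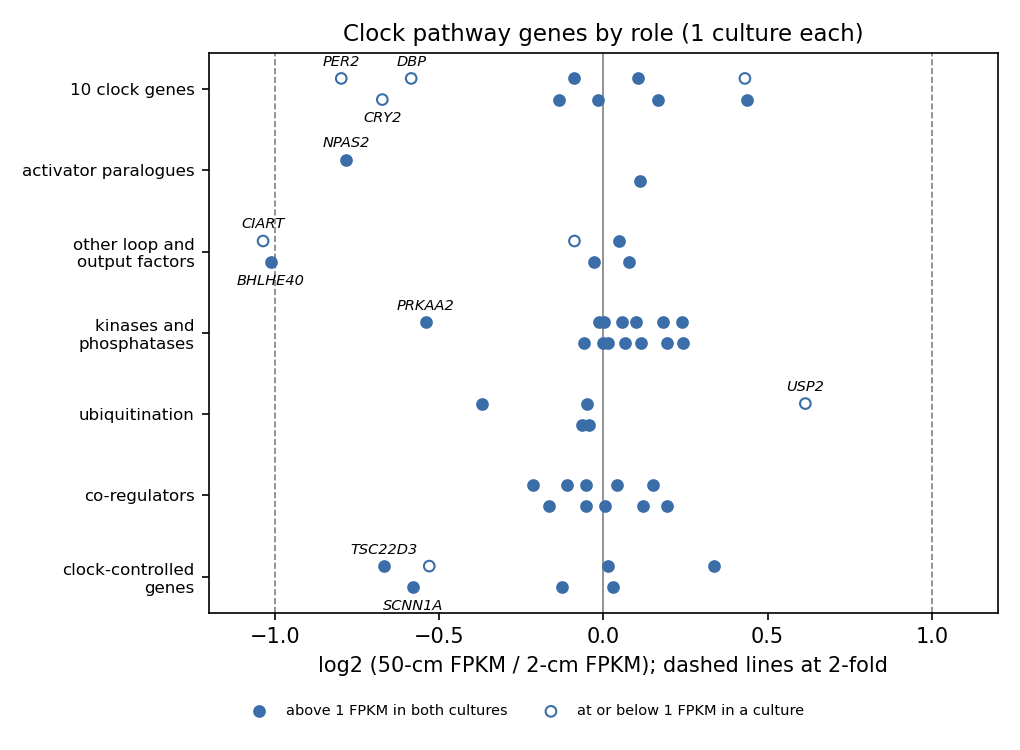
The log2 ratio of the loaded over the control culture (horizontal axis) for each clock pathway gene, in rows by role, with filled circles for genes above 1 FPKM in both cultures, open circles for the others, and dashed lines at 2-fold. Genes with FPKM listed at 0 in a culture are not drawn. The kinase and co-regulator genes gather near 0 apart from PRKAA2 at -0.54, and among filled circles only BHLHE40 passes a dashed line.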

How the data were processed

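RNA from 1 MDCK culture per medium height (2 and 50 cm) was sequenced as 75-base single-end reads from stranded mRNA libraries. Per the labels and the study's methods, reads were mapped to CanFam3.1 (TopHat 2.0.13, with Bowtie 2 of version 2.2.3 and SAMtools of version 0.1.19), and the authors deposited FPKM values from Cuffnorm 2.2.1. The gene annotation, the scaling of Cuffnorm and the use of strand were not given in the sources used here. Reads per library are unknown, so no interval was computed. Symbols were matched exactly or by a listed older symbol, and CD68 was not analysed here. Some further genes of the lists are not reported here and were left out of their counts. The 50-cm value was divided by the 2-cm value without a pseudocount. Counts past 2-fold and 1.5-fold used the 11057 features above 1 FPKM in both cultures and, for weaker genes, the 2223 above 0.1 but not above 1 FPKM in both. For a single gene, the 500 features nearest in mean log2 FPKM, of the 14306 above 0 in both, described the spread across genes, which is not replicate error.

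The clock genes and the further lists were chosen with earlier results of these data known. All 10 clock genes are named and, in each further list, the genes past 1.5-fold above 1 FPKM or, where there were none, the extremes. THRA was named for its position, and the other genes for context after their values were seen. The alternatives were FPKM minima of 0.1 and 5, a minimum of 1 in at least one culture, no minimum, pseudocounts of 0.1 and 1, recentring on the median, quantile normalization and, added after the data were seen, centring on the features nearest in level, CRY1 in the E-box set, and the same alternatives for 6 further genes and for list counts. The ratio script was tested on simulated data. The work used pandas 2.3.3 and numpy 2.4.6 in Python 3.11.15, with matplotlib 3.10.9 for the plots. No promoter or protein sequence was used here.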

Additional observations from a re-analysis of the deposited data

How the results depend on the processing

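No paired analysis was possible because each group is 1 culture. No replicate spread exists, so a log2 value was taken as moved when it shifted by 0.1 or more. The count of clock genes past 2-fold was 0 under every alternative run. The count past 1.5-fold was 0 of 6 in the report, 3 of 10 at a minimum of 0.1 FPKM or with no minimum, 2 of 9 with 1 FPKM in at least one culture, 1 of 6 (NR1D1) after quantile normalization and 1 of 6 (NR1D1) after centring on the features nearest in level. Of the 4 weaker genes, the 3 lower past 1.5-fold came to 1 (CRY2) with a pseudocount of 0.1, 0 with a pseudocount of 1, 0 after quantile normalization and 1 (PER2) after centring on the features nearest in level, and PER3 was higher past 1.5-fold under those last 2. The minima changed the count by admitting genes of low FPKM. The median log2 ratio of 0.043 became -0.053 with all 10 genes and -0.017 with 9. The difference between the E-box and REV-ERB element sets, 0.166, came to 0.017 at a minimum of 5 FPKM, which leaves 3 and 2 genes. CLOCK changed direction after quantile normalization and after centring on the features nearest in level (log2 ratio 0.023), and ARNTL after quantile normalization. The cause was not tested. BHLHE40 was past 2-fold under each alternative other than a pseudocount of 1, and EGR1 came to 2-fold (log2 ratio -1.001) after recentring. The remaining log2 values of single genes kept their direction, though not always their size. Over the alternatives, 30 values of single genes or of ARNTL minus NR1D1 moved and 110 did not. Many of the 110 were fixed in advance, so the tally does not measure stability. The FPKM minima leave the ratio of a gene unchanged, and recentring shifted a log2 ratio by only 0.0146. All 30 moves came under a pseudocount, quantile normalization or centring on the features nearest in level. NR1D1, at 0.438 in the report, came to 0.307 with a pseudocount of 1 and to 0.632 after quantile normalization. Among the 10 clock genes, PER2, CRY2, PER3 and DBP had the lowest FPKM, and the reads behind them are unknown.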

Other observations

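PER1 shares its acute inputs with the immediate early genes and with genes induced by glucocorticoid, so these were listed as well. Of 14 immediate early and cAMP-responsive genes 9 stood above 1 FPKM in both cultures, with 5 higher and 4 lower in the loaded culture (6 and 3 after quantile normalization) and a median log2 ratio of 0.116. EGR1, a zinc finger transcription factor induced by serum and growth factors, was at 14.5 FPKM in the control culture and 7.33 FPKM in the loaded culture (ratio 0.505), and 0.6% of the 500 features nearest in level lay at least as far from 0 on the log2 scale. SIK1, a kinase gene that responds to cAMP and is known to restrain clock resetting, was at 2.03 and 3.30 FPKM (ratio 1.63), and 14.4% of the features nearest in level lay at least as far from 0. The features nearest to SIK1 had a median log2 ratio of -0.144, and 2.2% of them had a higher ratio than SIK1. Of those nearest to EGR1, 0.6% had a lower ratio than EGR1. EGR1 and SIK1 were the 2 of the 9 past 1.5-fold, beside 7.19% of all features above 1 FPKM. FOS was at 12.0 and 9.50 FPKM and CREM at 9.34 FPKM in both cultures. EGR1 and SIK1, both induced at once by acute stimuli, thus lay on opposite sides of PER1 (ratio 1.07).

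Of 8 glucocorticoid-induced genes, PER1 among them, 6 stood above 1 FPKM in both cultures, with 3 higher and 3 lower (2 and 4 after quantile normalization) and a median log2 ratio of 0.00645. TSC22D3 was the 1 of the 6 past 1.5-fold, beside the same 7.19% of all features. FKBP5, which encodes a co-chaperone of the glucocorticoid receptor, was at 34.1 and 33.7 FPKM (ratio 0.99), and SGK1, a kinase that acts on sodium transport, at 77.9 and 79.4 FPKM (ratio 1.02). TSC22D3, PER1, SGK1, DUSP1 and KLF9 also belong to other lists used here. ZBTB16 and KLF9 were listed at 0 in both cultures.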
